A study of Mus musculus with 8 samples.

Results

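The basement membrane is the thin protein sheet that lies under every epithelium, and 36 of its genes were followed here through closure of the mouse optic fissure. They were chosen by name, as laminins, type IV collagens, nidogens, proteoglycans, nephronectin and fibulins, Fraser complex genes and associated glycoproteins, and every probe set annotated with one of these symbols was taken. The list was drawn up with earlier results of these data known. A probe set is the group of short probes that reads 1 transcript on the array. Of the 36 genes, 35 had a probe set under their symbol, 72 probe sets in all, and Efemp2 was not analysed here. A filter on low signal kept 49 probe sets of 30 genes, out of 27022 probe sets and 13050 genes kept in the series as a whole.

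The tissue was optic fissure from wild-type C57BL/6 embryos, cut by laser capture from frozen sections. The stages were embryonic day 10.5 (E10.5), with 3 arrays, E11.5, with 3 more, and E12.5, with 2. They are named here by stage and letter, and each array held pooled tissue of 3 embryos. No allele, drug or other treatment was applied, and the stages differ in age alone as far as the labels say. The labels disagree on whether the pooled embryos shared a litter, so the p-values measure the spread between these pools.

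The optic fissure is a groove along the lower side of the optic cup, whose margins meet and fuse during development. Each margin is lined by a basement membrane, and these must be opened where the margins join. In a basement membrane, laminin trimers form 1 network on the cell surface and type IV collagen trimers form another. Nidogens and the proteoglycan perlecan link the networks, and integrins and dystroglycan hold them to the cell. Failure of fusion leaves a gap in the eye known as coloboma.

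Of the 30 measured genes, 5 rose at E12.5 relative to E10.5 and passed the test: Efemp1, Npnt, Col4a4, Col4a5 and Nid2. They belong to different families of the sheet, namely the fibulins, nephronectin, the type IV collagens and the nidogens. Npnt had risen by E11.5, while Col4a5 rose between E11.5 and E12.5 on 1 of its probe sets. These calls depended on the processing. That of Npnt stood in 9 of 19 alternative settings, and that of Col4a5 in 11 of 19. The laminins made no call in any comparison. Lamb1, the beta chain of the main embryonic laminins, had values at E12.5 below those of every earlier array, without passing the test on the deposited values.

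The counts stand as follows against all measured genes, with limma's adjusted p below 0.05 as the threshold. Since the genes were chosen with earlier results of these data known, a share above that of all genes is not independent support. Between E12.5 and E10.5, 5 of 30 basement membrane genes (16.7%) were called higher, where 3.49% of all 13050 genes were, and 0 were called lower, where 1.78% of all genes were. At an unadjusted p below 0.05, limma gave 8 basement membrane genes higher and 5 lower in that comparison. At E11.5 relative to E10.5, 1 gene was called higher (3.33%) and 0 lower, against 0.153% and 0.023% of all genes, with 6 higher and 4 lower at an unadjusted p below 0.05. For E12.5 against E11.5, 1 gene was called higher (3.33%) and 0 lower, against 1.79% and 0.238% of all genes, with 7 higher and 2 lower at an unadjusted p below 0.05. The unadjusted threshold was passed, in either direction, by many of the 27022 kept probe sets. They numbered 5993 for E12.5 over E10.5, 5254 for E11.5 over E10.5 and 4507 for E12.5 over E11.5. A test for any difference among the 3 stages called the 5 genes named above, where 3.38% of all genes were called. The 5 calls at E12.5 relative to E10.5 numbered 2 without E12.5 A (Col4a4 and Efemp1), 2 without E12.5 B (Efemp1 and Npnt) and 3 without E10.5 A (Col4a4, Efemp1 and Npnt). Those of the test for any stage numbered 2 without any one of these arrays and 3 without E11.5 B.

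A second count needs no model: genes whose arrays did not overlap between the stages and whose means differed by 1 or more on the log2 scale. For E12.5 against E10.5 it held 6 genes higher, the 5 called ones and Ntn4, and 2 lower, Lamb1 and Col18a1. The shares of all genes were 6.09% higher and 4.11% lower. At E11.5 relative to E10.5 it held Efemp1, Nid2 and Npnt as higher and 0 genes as lower, where 0.904% and 4.54% of all genes were. For E12.5 against E11.5 it held Col4a5 and Efemp1 as higher and Frem2 and Lamb1 as lower, where 7.36% and 0.881% of all genes were.

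**Figure D1:**
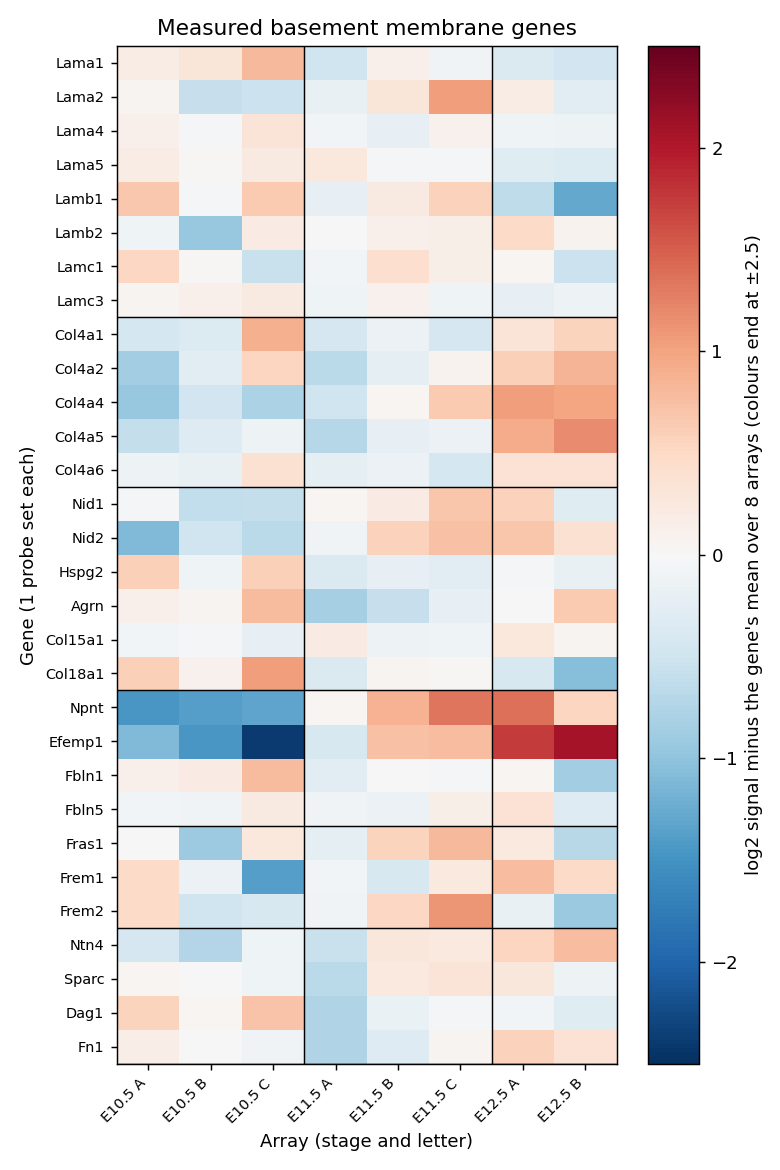
Log2 signal of the 30 measured basement membrane genes on each of the 8 arrays, as the deviation from the gene's mean over the arrays, grouped by family, with arrays in order of stage. Colour spans 2.5 log2 units either way. The values of Efemp1 and Npnt are lowest on the 3 E10.5 arrays, and those of Lamb1 and Col18a1 are lowest on the 2 E12.5 arrays.

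Markers of other cell types in the cut tissue differed between stages, and their part in the results on basement membrane genes was not tested. For the periocular mesenchyme, the connective tissue around the eye, 13 of 16 markers were measured, and their summed linear signal was 431 to 617 on the E10.5 arrays, 1070 to 1960 on the E11.5 arrays and 1080 to 1700 on the E12.5 arrays. Their median log2 change was 1.27 at E11.5 and 1.07 at E12.5 relative to E10.5, with 3 called higher in each. All 10 pigment epithelium markers were measured, and 8 were higher in each of these comparisons, with medians of 1.46 (3 called higher) and 1.60 (5 called higher, 1 lower). The pigment epithelium sums overlapped between stages, at 2530 to 7650, 3870 to 9590 and 3850 to 6240 from E10.5 to E12.5. Markers of both tissues were thus mostly lower at E10.5, as were Npnt, Efemp1 and Nid2. The surface ectoderm sum (4 of 10) was 251 to 326, 637 to 892 and 395 to 454, with 0 of the 4 called by limma and 2 at an unadjusted p below 0.05 at E11.5 relative to E10.5. The lens sum (7 of 14) was 192 to 245, 344 to 524 and 413 to 522, but 1 gene, Cryab, was called higher in both comparisons with E10.5, and 2 of the 7 had higher means in each, with medians of -0.08 and -0.09. Col1a1, Twist1, Foxe3, Krt14, Cdh1 and Trp63 of these lists were below the filter. The sum of 9 of 10 neural retina progenitor markers was 12300 to 14800, then 5540 to 11100, and 25900 to 27400 at E12.5. Col4a5 was also highest at E12.5. Of these 9 markers, 6 had higher means at E12.5 than at E10.5, with a median log2 change of 0.79 (3 called higher). Their median was -0.71 at E11.5 over E10.5 and 1.31 at E12.5 over E11.5. Quantile normalization made these -0.22 and 0.64. Endothelium (9 of 14), whose sheets hold much type IV collagen, summed to 413 to 477, 447 to 484 and 484 to 515, with Pecam1, Cdh5, Tie1 and Emcn below the filter, and pericytes (6 of 8) to 519 to 626, 421 to 548 and 325 to 484. Macrophages (8 of 11) summed to 487 to 1380, 731 to 812 and 1030 to 1480, and red blood cells (7 of 10) to 17000 to 22900, 10200 to 23300 and 16900 to 18200. Optic fissure and stalk markers (6 of 7) summed to 5470 to 8530, 3470 to 7360 and 3780 to 6890, with Pax2 not analysed here. Their median log2 change at E12.5 relative to E10.5 was -0.75, with 2 called lower and 0 higher, and 2 of the 6 had higher means. Ntn1, described below, is 1 of those called lower. The Gapdh 3 prime minus 5 prime log2 signal, which grows as amplified transcripts get shorter, was 4.19 to 4.71, 3.35 to 4.63 and 4.78 to 5.17. For beta-actin it was 6.83 to 6.96, 5.45 to 6.61 and 6.88 to 7.21. In these bulk samples, fewer cells of a type and less RNA per cell cannot be told apart.

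Efemp1 encodes fibulin 3, a secreted glycoprotein of the extracellular matrix in which a human mutation causes an inherited macular dystrophy. Its log2 signal was 6.96, 6.61 and 5.68 on E10.5 arrays A, B and C, 7.66, 8.81 and 8.84 on the E11.5 arrays, and 9.81 and 10.16 on the E12.5 arrays. The stages did not overlap, and every array of a later stage stood above every array of an earlier one. The E10.5 mean was 6.42 ± 0.66 (SD, n = 3), the E11.5 mean 8.44 ± 0.67 (SD, n = 3) and the E12.5 mean 9.99 ± 0.24 (SD, n = 2). Efemp1 rose at E12.5 relative to E10.5 by 3.57 on the log2 scale (SE 0.43, 11.9-fold, limma adjusted p = 0.00093), the largest change of the 30 genes in that comparison. The change at E11.5 relative to E10.5 was 2.02 (SE 0.39, adjusted p = 0.0899), and that at E12.5 relative to E11.5 was 1.55 (SE 0.43, adjusted p = 0.109). Neither step passed the test alone on the deposited values, while quantile normalization gave 2.32 at E11.5 over E10.5 with adjusted p = 0.0403. The call at E12.5 over E10.5 stood in 19 of 19 alternative settings.

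The stretch before the annotated start of Efemp1 is shown because it belongs to the gene with the largest rise. It lies at chr11:28852955-28853153 on the plus strand of GRCm38.p6, from the RefSeq promoter table, and ends 51 bases before the start site, since the bases after it lie inside an annotated gene. Capitals mark a match to the AP-1 motif (TGANTCA), searched on both strands and found 154 bases before the start site. In the same window, 5.71% of 27025 mouse promoters hold this motif, and 49.7% of the bases are G or C, near the median of 51.3%.
Efemp1: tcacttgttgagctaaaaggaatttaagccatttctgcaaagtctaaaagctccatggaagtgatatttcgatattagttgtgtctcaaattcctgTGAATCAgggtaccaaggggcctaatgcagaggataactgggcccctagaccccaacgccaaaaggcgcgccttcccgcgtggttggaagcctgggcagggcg

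Nephronectin, the product of Npnt, is a basement membrane ligand of integrin alpha 8 beta 1, known for its part in the outgrowth of the ureteric bud in the mouse kidney. Npnt gave 5.70, 5.78 and 5.84 on E10.5 arrays A to C, 7.21, 8.02 and 8.50 on the E11.5 arrays, and 8.53 and 7.69 on the E12.5 arrays. The 3 E10.5 arrays lay close together and below all others, and the E11.5 and E12.5 arrays overlapped. Npnt rose at E11.5 relative to E10.5 by 2.14 (SE 0.33, 4.39-fold, limma adjusted p = 0.0359), and at E12.5 relative to E10.5 by 2.33 (SE 0.37, 5.04-fold, adjusted p = 0.00494). At E12.5 relative to E11.5 the change was 0.20 (SE 0.37, adjusted p = 0.841), and it was -0.13 after quantile normalization. The E11.5 call was lost without any one of E10.5 A (adjusted p = 0.0837), E10.5 B (0.0753), E10.5 C (0.0756), E11.5 B (0.200), E11.5 C (0.0818) or E12.5 B (0.0511), while its log2 change then lay between 1.84 and 2.17. The E12.5 call over E10.5 was lost without E12.5 A (adjusted p = 0.0505).

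Npnt has 4 kept probe sets, and they did not move alike. One other set rose by 2.79 at E12.5 relative to E10.5 (limma adjusted p = 0.00883), beside the 2.33 of the set described above. For the remaining sets the log2 changes were 0.07 (adjusted p = 0.873) and 0.42 (adjusted p = 0.323), and in the set with 0.42 the E10.5 arrays also lay below all later ones, with a change of 0.74 at E11.5 (adjusted p = 0.159). Some of these sets carry a manufacturer's suffix for probes that can match several transcripts, and which transcript each set reads was not tested.

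**Figure D2:**
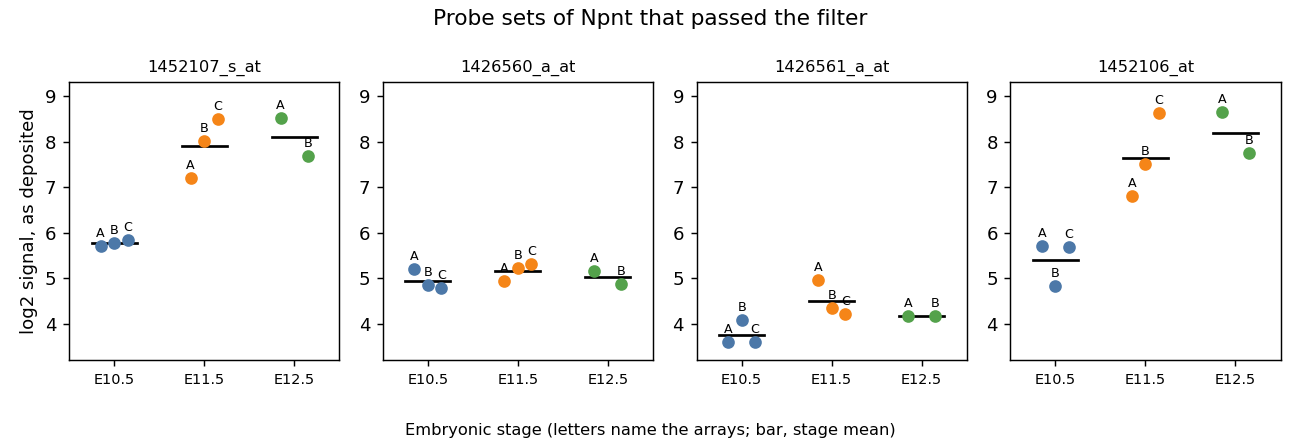
Log2 signal of the 4 kept Npnt probe sets on the 8 arrays, with 1 point per array and 1 panel per probe set, stages from E10.5 to E12.5, and bars at the stage means. The E10.5 arrays lie below all later arrays in every panel but the second from the left, and the E12.5 over E10.5 change is 2.33, 0.07, 0.42 and 2.79 from left to right.

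The 250 bases before the annotated start of Npnt are shown because Npnt was the gene called at E11.5. They lie at chr3:132950292-132950541 on the minus strand of GRCm38.p6, from the RefSeq table. Capitals mark GC boxes (GGGCGG, on either strand), found 88, 77 and 19 bases before the start site, a motif that 33% of the 27025 promoters hold in this window. G or C make up 74% of these bases, against a median of 52% over all promoters. None of the TATA box (TATAAA), the CCAAT box (CCAAT), the AP-1 motif or the TEAD motif (GGAATG) was found on either strand in this window.
Npnt: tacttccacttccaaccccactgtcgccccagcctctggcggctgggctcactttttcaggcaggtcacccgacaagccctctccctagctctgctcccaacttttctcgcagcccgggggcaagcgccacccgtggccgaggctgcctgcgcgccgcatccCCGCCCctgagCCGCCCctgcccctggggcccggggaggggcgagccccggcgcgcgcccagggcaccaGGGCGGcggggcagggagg

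Integrin alpha 8, encoded by Itga8, is the receptor subunit that nephronectin binds. Itga8 gave 7.43, 7.57 and 8.51 on the E10.5 arrays, 6.59, 6.07 and 6.42 on the E11.5 arrays, and 5.97 and 5.93 on the E12.5 arrays. Its E10.5 arrays lay above all later arrays. Itga8 fell at E12.5 relative to E10.5 by 1.88 on the log2 scale (SE 0.33, limma adjusted p = 0.0089), where its ligand rose. At E11.5 relative to E10.5 its change was -1.48 (adjusted p = 0.0958).

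The type IV collagens form the network that gives the sheet its tensile strength, with chains that join into trimers. At E12.5 all 5 measured chains had higher means than at E11.5 and than at E10.5, with a median log2 change of 0.96 over E11.5 and of 0.93 over E10.5. Of all genes, 60% and 41.4% had higher means in these comparisons. Quantile normalization kept all 5 positive in both comparisons. Over E11.5 it gave 0.40 for Col4a1, 0.77 for Col4a2, 0.90 for Col4a4, 1.04 for Col4a5 and 0.61 for Col4a6. The deposited values gave 0.78, 1.00, 0.96, 1.42 and 0.63. Against E10.5, 2 of the 5 were called. Col4a4, a chain of the kidney glomerular network, gave 3.79, 4.27 and 3.95 on the E10.5 arrays, 4.24, 4.78 and 5.39 on the E11.5 arrays, and 5.79 and 5.73 on the E12.5 arrays. The E12.5 arrays lay above all the others, and the E10.5 and E11.5 arrays overlapped. Col4a4 rose at E12.5 relative to E10.5 by 1.76 (SE 0.29, 3.38-fold, limma adjusted p = 0.00692), and a second probe set rose by 1.72 (adjusted p = 0.0124). The call was lost without E12.5 B (adjusted p = 0.066). The signal of Col4a4 is near the low end of the range, where fold changes are less certain. Its second probe set passed the filter narrowly, with a mean of 3.96 against a cut of 3.94. The E10.5 arrays of that set gave 2.74, 3.19 and 3.63, so it adds no independent support.

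Col4a5, a chain that pairs with Col4a6 in epithelial basement membranes, gave 7.95, 8.23 and 8.41 on the E10.5 arrays, 7.84, 8.35 and 8.40 on the E11.5 arrays, and 9.48 and 9.74 on the E12.5 arrays. The E12.5 arrays stood apart, and the earlier stages overlapped throughout. Col4a5 rose at E12.5 relative to E11.5 by 1.42 (SE 0.29, 2.67-fold, limma adjusted p = 0.034) and relative to E10.5 by 1.41 (SE 0.29, 2.66-fold, adjusted p = 0.0211). The second probe set of Col4a5 had a log2 change of 0.10 (adjusted p = 0.862) and -0.11 (adjusted p = 0.801) in the same comparisons. After quantile normalization the change over E11.5 was 1.04 (adjusted p = 0.0595). The E11.5 comparison lost its call without E10.5 B, E11.5 A, E11.5 B, E12.5 A or E12.5 B, with adjusted p between 0.0615 and 0.519, and the E10.5 comparison without E10.5 A (0.0586), E12.5 A (0.0876) or E12.5 B (0.295). Averaging both Col4a5 probe sets gave 0.65 over E10.5 (adjusted p = 0.0911) and 0.76 over E11.5 (adjusted p = 0.099), so both calls rest on 1 of them.

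Col4a1 and Col4a2 encode the chains found in nearly all basement membranes. Col4a1 gave 7.97 to 9.31 over the 8 arrays and had a log2 change of 0.78 at E12.5 relative to E11.5 (SE 0.38, adjusted p = 0.33). Col4a2 gave 6.10 to 7.82 and had a log2 change of 1.00 (SE 0.38, adjusted p = 0.223). Col4a6 had a log2 change of 0.63 (adjusted p = 0.162) in that comparison. For each of the 3 chains the E12.5 arrays lay above the E11.5 arrays. The share of all genes with this pattern was not counted, and 60% of all genes had higher means at E12.5 than at E11.5. For Col4a1 and Col4a6, E10.5 C lay above both E12.5 arrays, at 9.31 against 8.74 and 8.99 for Col4a1. Col4a3 was measured on no kept probe set.

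Col4a5 and Col4a6 lie head to head on the X chromosome, with start sites 1343 bases apart, and the stretches before both starts are shown because the genes share this region. Col4a5 is at chrX:141475169-141475369 on the plus strand and Col4a6 at chrX:141474096-141474326 on the minus strand, both of GRCm38.p6 from the RefSeq table. Capitals mark a CCAAT box (CCAAT) 196 bases before the Col4a5 start, a motif that 29.1% of promoters hold in that window. In the Col4a6 stretch none of the 5 motifs searched was found. Each printed stretch ends short of the start site, by 49 bases for Col4a5 and 19 for Col4a6, since the bases after it lie inside an annotated gene.
Col4a5: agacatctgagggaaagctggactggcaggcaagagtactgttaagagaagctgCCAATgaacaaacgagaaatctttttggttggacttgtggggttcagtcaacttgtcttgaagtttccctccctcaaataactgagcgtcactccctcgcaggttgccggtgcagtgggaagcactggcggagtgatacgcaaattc
Col4a6: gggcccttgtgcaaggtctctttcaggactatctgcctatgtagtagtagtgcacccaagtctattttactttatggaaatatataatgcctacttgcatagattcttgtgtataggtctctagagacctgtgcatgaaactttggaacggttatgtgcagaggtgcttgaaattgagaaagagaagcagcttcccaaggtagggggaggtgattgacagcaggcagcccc

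**Figure D3:**
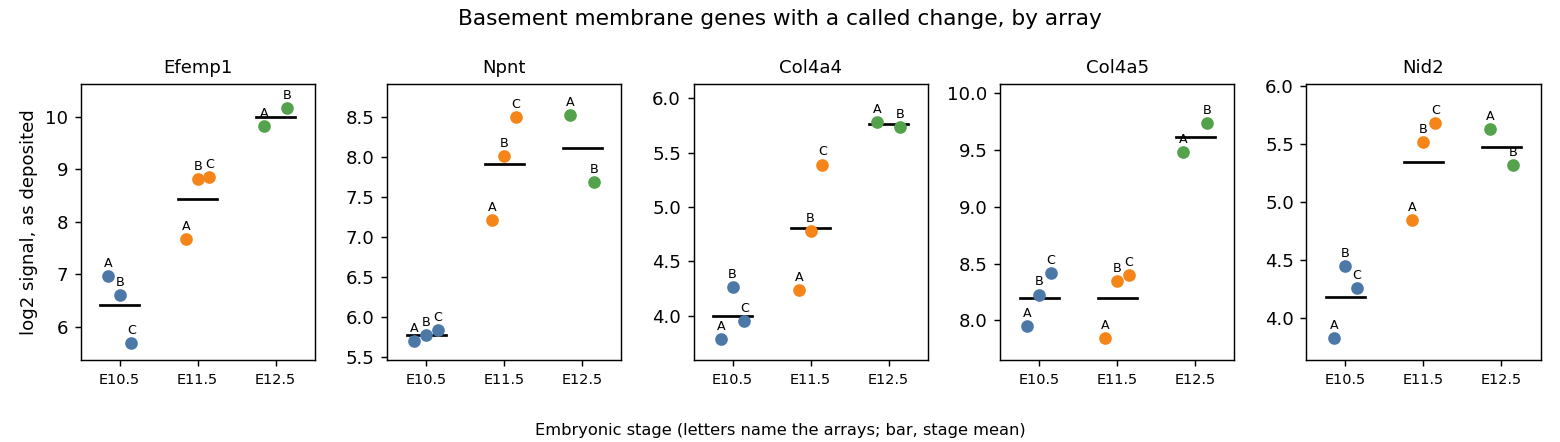
Log2 signal of the 5 called genes, with 1 point per array and bars at the stage means, for stages E10.5, E11.5 and E12.5. The E12.5 arrays lie above the E10.5 arrays for all 5, by 11.9-fold for Efemp1 and 2.44-fold for Nid2.

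Nidogen 2, encoded by Nid2, links the laminin network to the collagen network. Nid2 gave 3.83, 4.45 and 4.26 on the E10.5 arrays, 4.84, 5.52 and 5.67 on the E11.5 arrays, and 5.63 and 5.31 on the E12.5 arrays. The E10.5 arrays lay below all later ones, and the later stages overlapped. The E10.5 values of Nid2 are also near the low end of the range, where fold changes are less certain. Nid2 rose at E12.5 relative to E10.5 by 1.29 (SE 0.28, 2.44-fold, limma adjusted p = 0.0254). At E11.5 relative to E10.5 its log2 change was 1.16 (SE 0.25, adjusted p = 0.118). The E12.5 call was lost without E10.5 A (0.0607), E12.5 A (0.168) or E12.5 B (0.137). Its relative Nid1 had a log2 change of 0.55 at E12.5 relative to E10.5 (SE 0.32, adjusted p = 0.341).

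The laminins build the network that touches the cell. Of the 8 measured chains, 6 had lower means at E12.5 than at E10.5, with a median log2 change of -0.28. Over all 13050 genes the median was -0.10, and 41.4% had higher means, where 2 of the 8 chains did. Lamb1, the beta chain of laminin 111 and several other laminins, gave 11.87, 11.18 and 11.87 on the E10.5 arrays, 11.00, 11.44 and 11.79 on the E11.5 arrays, and 10.57 and 9.93 on the E12.5 arrays. Both E12.5 arrays lay below all earlier arrays. The change at E12.5 relative to E10.5 was -1.40 (SE 0.39, limma adjusted p = 0.0638), and a second probe set had a log2 change of -1.43 (adjusted p = 0.0666). After quantile normalization the change was -1.14, with adjusted p = 0.0138. Against E11.5 the E12.5 change was -1.16 (SE 0.39, adjusted p = 0.168) on the deposited values and -1.86 (adjusted p = 0.00238) after quantile normalization. The change relative to E10.5 passed the test in 7 of 19 alternative settings. On the deposited values these included the mean of its probe sets (adjusted p = 0.037), no trend (0.0481), and the fits without E10.5 B (0.0483), E11.5 A (0.0439) or E11.5 C (0.0499). Lama1, the alpha chain of laminin 111, had a log2 change of -0.86 at E12.5 relative to E10.5 (SE 0.27, adjusted p = 0.097). Lamb2, a later beta chain of muscle and kidney, gave 5.79 to 7.22 over the arrays and had a log2 change of 0.57 (SE 0.32, adjusted p = 0.327). Lamc1, the common gamma chain, had a log2 change of -0.24 (adjusted p = 0.698). The other measured chains, Lama2, Lama4, Lama5 and Lamc3, had log2 changes of 0.31, -0.26, -0.46 and -0.30.

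Lamb1 and Lamb2 are alternative beta chains of laminin trimers, and their difference within an array moves with stage. On the E10.5 arrays Lamb1 minus Lamb2 averaged 5.19 ± 0.23 (SD, n = 3), on the E11.5 arrays 4.58 ± 0.31 (SD, n = 3), and on the E12.5 arrays 3.23 ± 0.17 (SD, n = 2). The difference on both E12.5 arrays was below that on every earlier array, and it was 1.97 lower at E12.5 than at E10.5 (shift -1.97). Among the other pairs, Col4a5 minus Col4a6 was 1.08 higher at E12.5 than at E10.5, and Nid1 minus Nid2 was 0.74 lower (shift -0.74). Only these shifts are read, since levels of different probe sets are not comparable, and no test was made of them.

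**Figure D4:**
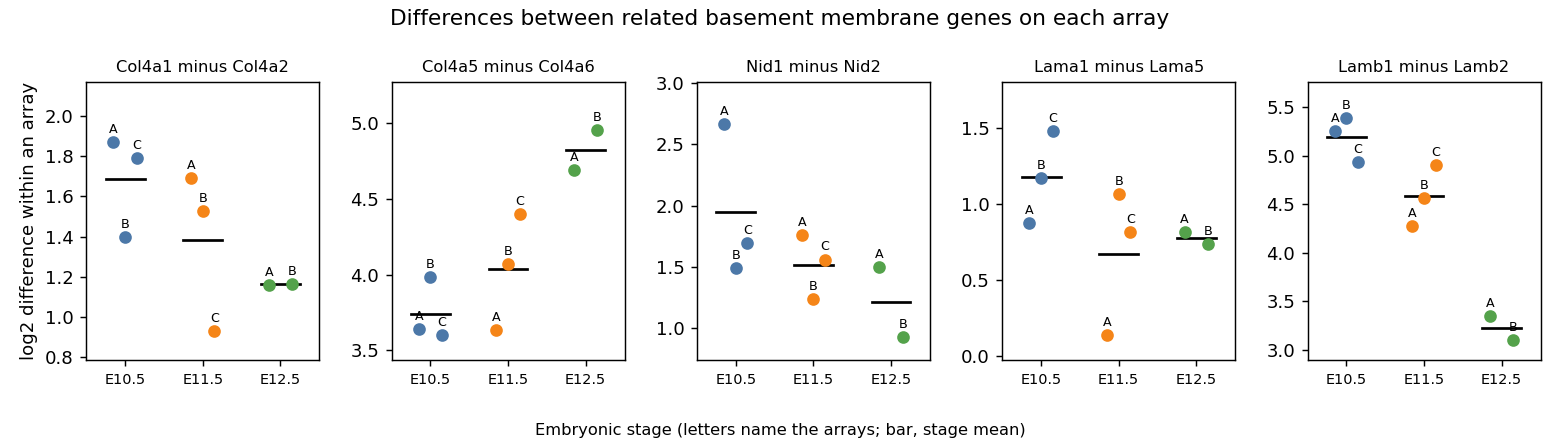
Within-array log2 difference between related basement membrane genes, with 1 point per array and stages from E10.5 to E12.5. Lamb1 minus Lamb2 averages 5.19 on the E10.5 arrays, 4.58 on the E11.5 arrays and 3.23 on the E12.5 arrays. Each panel has its own scale.

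Col18a1 encodes collagen XVIII, a heparan sulfate proteoglycan of basement membranes, and loss of the human gene causes an eye disorder. Its log2 signal was 10.26, 9.78 and 10.72 on the E10.5 arrays, 9.32, 9.74 and 9.70 on the E11.5 arrays, and 9.27 and 8.61 on the E12.5 arrays. The E10.5 arrays lay above all later ones. Its change at E12.5 relative to E10.5 was -1.32 (SE 0.36, limma adjusted p = 0.0586), and -1.19 after quantile normalization with adjusted p = 0.0324. It also passed without E10.5 B (adjusted p = 0.0399). A second probe set had a log2 change of -0.60 (adjusted p = 0.406). Perlecan (Hspg2) and agrin (Agrn), the other proteoglycans, had log2 changes of -0.47 (adjusted p = 0.365) and 0.00 (adjusted p = 0.996) at E12.5 relative to E10.5. Collagen XV (Col15a1), a relative of collagen XVIII, had a log2 change of 0.27 (adjusted p = 0.399).

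At E11.5, 6 of the 30 genes had arrays wholly below the E10.5 arrays, whatever the size of the change (20%, against 22.2% of all genes): Agrn, Hspg2, Col18a1, Dag1, Lama1 and Fbln1. None passed the test. For Agrn, Hspg2, Col18a1 and Dag1, which encodes the laminin receptor dystroglycan, the log2 changes were -0.86, -0.65, -0.67 and -0.76, and after quantile normalization -0.03, -0.28, -0.02 and -0.03. For Lama1 and Fbln1 they were -0.58 and -0.47, and after quantile normalization -0.48 and -0.37. Arrays wholly above the E10.5 arrays were found for 4 genes, Efemp1, Nid1, Nid2 and Npnt (13.3%, against 3.86% of all genes). The E11.5 arrays have a lower upper end of signal than the others, with a 99th percentile of 11.19 to 12.38 on the log2 scale, against 12.55 to 12.93 at E10.5.

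Ntn4, a laminin-like netrin of basement membranes, gave 7.17, 6.85 and 7.49 on the E10.5 arrays, 7.03, 7.88 and 7.84 on the E11.5 arrays, and 8.14 and 8.36 on the E12.5 arrays. The E12.5 arrays lay above the rest. Its change at E12.5 relative to E10.5 was 1.08 (SE 0.32, limma adjusted p = 0.0794). The Fraser complex genes Fras1, Frem1 and Frem2, which help hold embryonic epithelia to the tissue beneath, made no call. Frem2 gave 7.58, 6.60 and 6.70 on the E10.5 arrays, 7.01, 7.62 and 8.20 on the E11.5 arrays, and 6.92 and 6.17 on the E12.5 arrays. Both E12.5 arrays lay below the E11.5 arrays, and its change at E12.5 relative to E11.5 was -1.07 (SE 0.40, adjusted p = 0.215). Fras1 and Frem1 had log2 changes of -0.01 and 0.97 at E12.5 relative to E10.5 (adjusted p = 0.992 and 0.202). A second probe set of Fras1 had a log2 change of -0.92 (adjusted p = 0.17) in that comparison. Fbln1, Fbln5, Sparc, which binds collagen, and fibronectin (Fn1) had log2 changes of -0.79, 0.00, 0.11 and 0.45, with none called. Second probe sets of Fbln1 and Fn1 gave -0.15 and 0.48. The other kept sets of Sparc gave 0.73 (adjusted p = 0.287) and -0.04 (adjusted p = 0.935).

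Taking all 30 genes, the median log2 change at E12.5 relative to E10.5 was 0.19, against -0.10 over all 13050 genes, and 17 of 30 were higher (56.7% against 41.4% of all genes). At E11.5 relative to E10.5 the median was -0.03 against -0.22, with 43.3% higher against 27.7%. At E12.5 relative to E11.5 it was 0.13 against 0.11, with 60% higher in both. Quantile normalization gave 0.26 against 0.00, -0.11 against -0.07 and 0.25 against -0.07 for E11.5 over E10.5, E12.5 over E11.5 and E12.5 over E10.5. It changed the sign of 6, 5 and 1 of the 30 genes in these comparisons, each with a change of at most 0.37 on the deposited values. Over all probe sets it moved the share of calls that were higher to 67.6%, against 89% on the deposited values, at E12.5 over E11.5, and to 91.3% against 76.5% at E11.5 over E10.5. The stage of highest mean was E10.5 for 10 of the genes (33.3%, against 50.4% of all genes), E11.5 for 5 (16.7% against 14.2%) and E12.5 for 15 (50% against 35.4%).

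**Figure D5:**
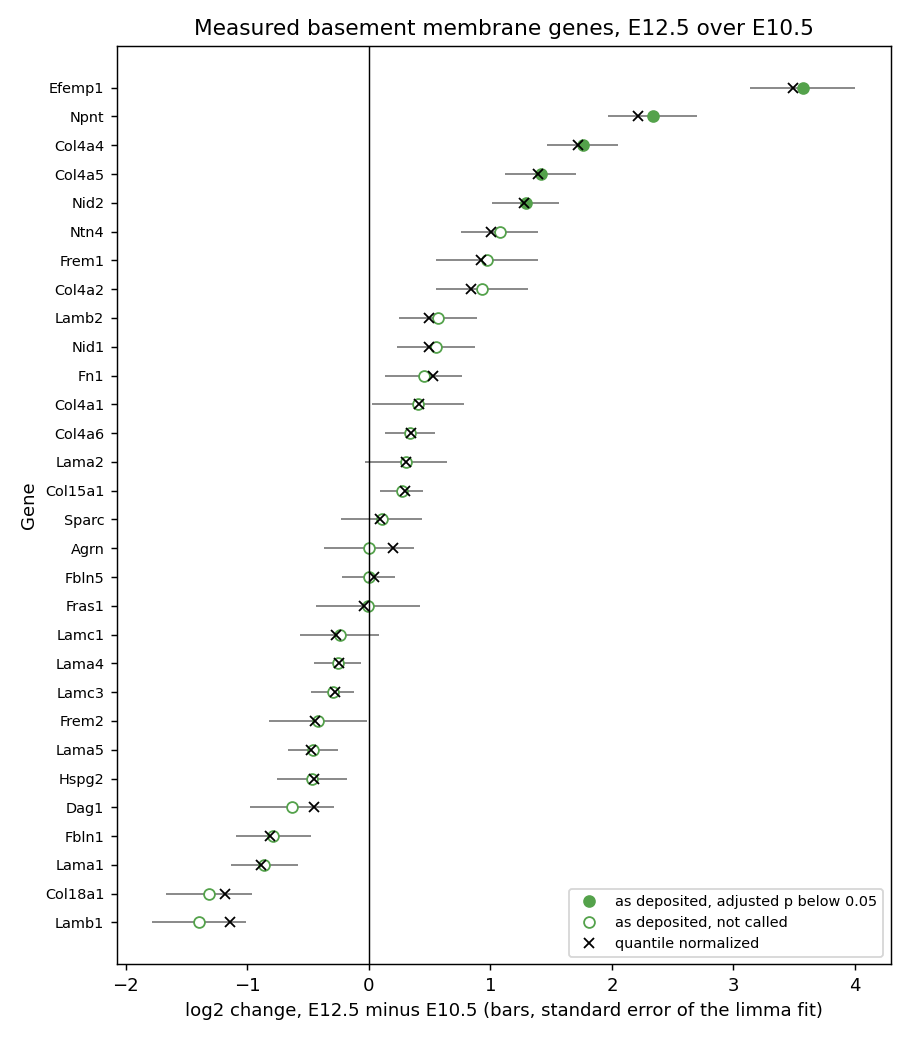
Log2 change at E12.5 over E10.5 for each measured basement membrane gene, with its SE, ordered by size. Filled circles passed the adjusted test, open circles did not, and crosses are the quantile normalized values. Efemp1 is the highest at 3.57, and Lamb1 the lowest at -1.40.

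The other genes of the pathway came from companion lists. The shares of all genes called higher and lower were 3.49% and 1.78% at E12.5 relative to E10.5. They were 1.79% and 0.238% at E12.5 relative to E11.5, and 0.153% and 0.023% at E11.5 relative to E10.5. Among 24 receptors of the basement membrane, 21 were measured, and 2 were called higher and 1 lower at E12.5 relative to E10.5, with 1 higher at E12.5 relative to E11.5 and 0 at E11.5 relative to E10.5 (4 higher and 4 lower at an unadjusted p below 0.05 there). Itgb8, an integrin beta chain, rose by 2.65 at E12.5 relative to E10.5 (limma adjusted p = 0.000511) and by 1.91 relative to E11.5 (adjusted p = 0.00666). Dmd, the dystrophin gene, whose protein links dystroglycan to actin, rose by 2.16 relative to E10.5 (adjusted p = 0.0218). Itga8 was the one called lower. Among 24 assembly enzymes, 20 were measured and 0 called in any comparison, with 3, 0 and 2 at an unadjusted p below 0.05. Among 22 proteases and their inhibitors, 18 were measured and 2 called lower at E12.5 relative to E10.5, Adamts9 and Htra1, both secreted proteases. Adamts9 fell by 2.08 (adjusted p = 0.035), with E12.5 values of 8.34 and 6.33 against 9.84, 9.22 and 9.19 at E10.5, and Htra1 fell by 1.14 (adjusted p = 0.0317). Among 30 further basement membrane and associated genes, 19 were measured, with 1 called higher and 2 lower at E12.5 relative to E10.5. Smoc1, mutated in a human syndrome with absent eyes, rose by 1.15 (adjusted p = 0.0271), Ntn1, a laminin-related guidance protein, fell by 4.04 (adjusted p = 3.57e-05), and Fbln7 fell by 1.18 (adjusted p = 0.0378). Against E11.5, 2 of these genes were called higher at E12.5 and 1 lower: Smoc1 rose by 1.45 (adjusted p = 0.0138), Megf9 rose 2.83-fold (adjusted p = 0.0446), and Ntn1 fell by 2.47 (adjusted p = 0.00158). Megf9 lost this call after quantile normalization (log2 change 1.07, adjusted p = 0.0799).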

How the data were processed

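Optic fissure tissue was laser captured and pooled from 3 embryos per array. Its RNA was amplified linearly and biotin labelled, per the labels' protocols, steps that favour the 3 prime ends of transcripts. The deposited values are log2 signals of 45101 probe sets. The submitters' processing notes list GCOS 1.4 without saying what it did. Summarization and normalization are not given in the sources used here, and the values were used as deposited.

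The 64 control probe sets and the lowest 40% by mean signal were left out. Stage was fitted with limma 3.58.1 in R 4.3.3 over all 8 arrays (5 residual degrees of freedom), with a mean-signal trend and Benjamini-Hochberg adjustment over the 27022 kept probe sets, threshold 0.05. A gene is represented by its kept probe set of highest mean, named from the platform annotation of 2016. Standard errors and p-values are limma's, two-sided. The code was tested on simulated data.

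Named genes are those called or with non-overlapping arrays and a log2 change of 1 or more, plus companion genes that were called. The members and lists were chosen with earlier results of these data known. The printed sequences were chosen after values were seen, from the RefSeq promoter table of GRCm38.p6, which held 26 of the 36 genes. Alternatives were quantile normalization, median centring, pseudocounts, filters, no trend, array weights, a replicate block, the compared stages alone, probe-set means and leaving out each array.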

Additional observations from a re-analysis of the deposited data

How the results depend on the processing

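No change of direction occurred in any alternative for the 15 gene changes followed. All 15 were picked with arrays that did not overlap between the stages compared. Leaving out an array, pseudocounts, array weights, other filters or no trend therefore could not have reversed them. The 5 calls at E12.5 over E10.5 numbered 7 under quantile normalization and 3 with the lowest 60% of probe sets left out, when 21 genes were measured. Array weights, which rested almost wholly on E11.5 B (218, against 0.163 to 1.2 for the others) and did not converge, gave 9, 19, 10 and 21 calls for E11.5 over E10.5, E12.5 over E11.5, E12.5 over E10.5 and any stage. The same weights called 5017, 12520, 3371 and 14230 of all 27022 probe sets. Calls at E11.5 over E10.5 numbered 1 as reported, 2 under quantile normalization, and 0 with pseudocounts of 16 or 64 or with no trend, where limma gave 10, 10 and 11 genes at an unadjusted p below 0.05. At E12.5 over E11.5 the mean of a gene's probe sets gave 0, with 12 at an unadjusted p below 0.05, and at E12.5 over E10.5 it gave 5, with Lamb1 in place of Col4a5. The test for any stage gave 3 with the lowest 60% left out. Leaving out 1 array gave 0 to 2 calls at E11.5 over E10.5, 0 to 2 at E12.5 over E11.5, 2 to 7 at E12.5 over E10.5 and 2 to 5 for any stage. Over all probe sets, alternatives other than array weights gave 0 to 56 calls at E11.5 over E10.5 (reported 34), 114 to 905 at E12.5 over E11.5 (reported 492), 209 to 1646 at E12.5 over E10.5 (reported 1255) and 189 to 1046 for any stage (reported 788). The array letters were treated only as names. Deviations from the stage means correlated at -0.394 to 0.127 over 7 same-letter pairs of arrays from different stages. Over 14 pairs of different letters the range was -0.149 to 0.409, and 0 of 8 arrays correlated best with their own letter. Such deviations sum to 0 within a stage, so they cannot settle whether the letters pair the arrays. A replicate block on the letters gave 0, 0, 5 and 3 calls, with 10, 10, 10 and 12 at an unadjusted p below 0.05. With 2 arrays at E12.5, the precision at that stage is limited, and no background or detection call was used.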

Other observations

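Where a gene had several kept probe sets, as 14 of the 30 did, they pointed the same way in 8 genes at E11.5 over E10.5, in 9 at E12.5 over E11.5 and in 12 at E12.5 over E10.5. Among the 5 genes with no kept probe set, Smoc2, Lamb3, Fbln2, Lama3 and Col4a3, no array exceeded a log2 signal of 4.36.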
